A study of Mus musculus with 12 samples.

Results

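DUSP, Sprouty and Spred proteins are the brakes that a cell makes when its MAP kinases are active, and 10 of their genes were followed here: Dusp1, Dusp4, Dusp5, Dusp6, Dusp10, Spry1, Spry2, Spry4, Spred1 and Spred2. They were chosen by name, with earlier results of these data known, and all 10 are listed among the 29101 genes of the mural granulosa cell table and the 33137 genes of the cumulus cell table. The series holds bulk RNA-seq of 2 ovarian cell types, the mural granulosa cells of the follicle wall (MGCs) and the cumulus cells around the oocyte, both collected from mouse ovaries at 2 h post-hCG, with 3 libraries per genotype and cell type, 12 in all. hCG is a hormone that acts on the LH receptor, and per the methods of the study the immature females were first primed with eCG, which stimulates follicle growth. The control mice were WT (C57/BL6), and the other mice were Sphk1/2 knockouts, that is Sphk1-/-; Sphk2fl/fl; Fshr-Cre. In these mice Sphk1 is lost in every tissue, whereas Sphk2 is removed where Fshr-Cre acts, in granulosa cells. Sphk1 and Sphk2 are the kinases that make sphingosine-1-phosphate. The methods state in general that experiments were repeated independently, and no source used here says whether the 3 libraries of a group came from separate mice or pools. The p-values therefore measure the spread between these libraries, which may be technical in part.

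LH makes MGCs release EGF-like growth factors, and these activate EGFR, RAS, RAF, MEK and ERK in MGCs and cumulus cells, a step that cumulus expansion and meiotic resumption require. ERK activity then raises the transcription of its own inhibitors. Among the DUSP members, DUSP5 and DUSP6 remove phosphate from ERK, in the nucleus and in the cytoplasm respectively. DUSP1 and DUSP4 are inducible nuclear phosphatases that act on ERK, p38 and JNK, and DUSP10 prefers p38 and JNK. Sprouty proteins act further up, between the receptor and RAF, and Spred proteins recruit neurofibromin to switch RAS off.

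On the GRCm38 assembly, Dusp1 lies at chr17:26505590-26562128 (minus strand), Dusp4 at chr8:34807297-34819894 (plus), Dusp5 at chr19:53529109-53542431 (plus), Dusp6 at chr10:99263231-99267489 (plus) and Dusp10 at chr1:184013302-184075636 (plus). Spry1 lies at chr3:37639947-37644598 (plus), Spry2 at chr14:105891947-105896819 (minus), Spred1 at chr2:117121374-117182279 (plus) and Spred2 at chr11:19924375-20024026 (plus). All are protein-coding. Exons of Dusp5 share 547 bases with the antisense gene AC137853.2, exons of Spry1 share 710 bases with Gm42922 on the other strand, and exons of Dusp1 share 11 bases with Ergic1. The counting is not stated to use strand, so reads in those stretches cannot be told apart.

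The promoters of the 4 members that were higher in cumulus cells labelled knockout are shown first, because these sequences differ in the regulatory motifs that they hold. The sequences are from RefSeq (GRCm38.p6), 5′ to 3′ on the strand of the gene, from 250 to 51 bases upstream of the RefSeq start, and the table matched 8 of the 10 members. The windows are chr17:26508523-26508722 for Dusp1, chr19:53528895-53529094 for Dusp5, chr10:99262981-99263180 for Dusp6 and chr14:105896870-105897069 for Spry2. That of Dusp1 lies inside the gene span given above, outside its exons, because the RefSeq start lies within that span. Capitals mark the motifs found.
Dusp1: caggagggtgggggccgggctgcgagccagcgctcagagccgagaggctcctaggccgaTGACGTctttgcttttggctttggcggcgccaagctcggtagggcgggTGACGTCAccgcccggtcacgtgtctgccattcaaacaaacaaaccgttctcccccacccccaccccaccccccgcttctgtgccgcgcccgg
Dusp5: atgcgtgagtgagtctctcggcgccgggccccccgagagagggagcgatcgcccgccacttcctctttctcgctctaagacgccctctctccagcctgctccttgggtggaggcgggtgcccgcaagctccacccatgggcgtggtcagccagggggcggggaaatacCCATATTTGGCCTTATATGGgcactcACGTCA
Dusp6: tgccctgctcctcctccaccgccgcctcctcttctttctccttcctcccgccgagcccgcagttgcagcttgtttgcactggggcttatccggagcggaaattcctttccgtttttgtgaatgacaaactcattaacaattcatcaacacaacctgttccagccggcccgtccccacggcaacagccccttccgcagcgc
Spry2: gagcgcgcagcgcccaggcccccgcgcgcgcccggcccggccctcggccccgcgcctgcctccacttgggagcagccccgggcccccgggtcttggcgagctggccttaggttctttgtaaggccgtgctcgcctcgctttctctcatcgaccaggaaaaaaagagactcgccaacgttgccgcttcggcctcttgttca
The search covered, on both strands, the cAMP response element (CRE, TGACGTCA), its core (TGACGT, which also lies inside the full element), the AP-1 site (TGANTCA), the ETS site (CCGGAAG) and the CArG box of serum response factor. In the Dusp1 window the full CRE lies 143 to 136 bases upstream of the start, and a further core lies 191 to 186 bases upstream. In the Dusp5 window there are 2 adjacent CArG boxes, CCATATTTGG at 82 to 73 bases and CCTTATATGG at 72 to 63 bases upstream, and a CRE core on the minus strand (ACGTCA) at 56 to 51 bases. None of the letters searched is in the Dusp6 or Spry2 window, nor in those of Dusp10, Spry1, Spred1 and Spred2. The Dusp10 window also lies inside its gene, and that of Spred2 overlaps an annotated exon. The bases after the RefSeq start of Spred1 were not found in an annotated transcript of that gene. Of 32851 RefSeq promoter windows of the same length, 0.828% hold the full CRE, 4.16% its core, 1.16% a CArG box, 5.57% an AP-1 site and 3.98% an ETS site. These matches are a description of the sequence, and binding was not measured.

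The libraries held 16100365 to 19761604 reads, recovered from the FPKM values (fragment counts scaled to exon length and to library size) that the authors deposited. WT cumulus library 3 lists 27541 genes above 0, against 18788 to 19289 in the other 5 cumulus libraries. MGC library 3 labelled knockout stands apart, with correlations of 0.912 to 0.939 with the other libraries. Calls of the members and of the pathway lists that rest on either library are therefore also given without it. Correlations between genes, summed levels and markers are given over all libraries only. WT MGCs held Sphk1, the gene removed in all tissues, at 1.68, 1.88 and 0.460 FPKM, and MGCs labelled knockout held it at 0.432, 0.557 and 0.104 FPKM. In cumulus cells Sphk1 was at 0.0911, 0.0699 and 0.0954 FPKM (6 to 8 reads) in WT and at 0.0778, 0.456 and 0.557 FPKM (7 to 51 reads) in the libraries labelled knockout, which goes against the label. Sphk2 was at 0.403 to 0.602 FPKM in WT cumulus cells and at 0.434 to 0.752 FPKM in those labelled knockout, and at 5.18 to 5.86 and 4.51 to 6.29 FPKM in the MGC groups. These are values over whole genes, so RNA that lacks only the deleted exons is still counted, and they do not check the genotype. Genotypes are therefore named as labelled throughout, and each direction below rests on those labels.

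**Figure D1:**
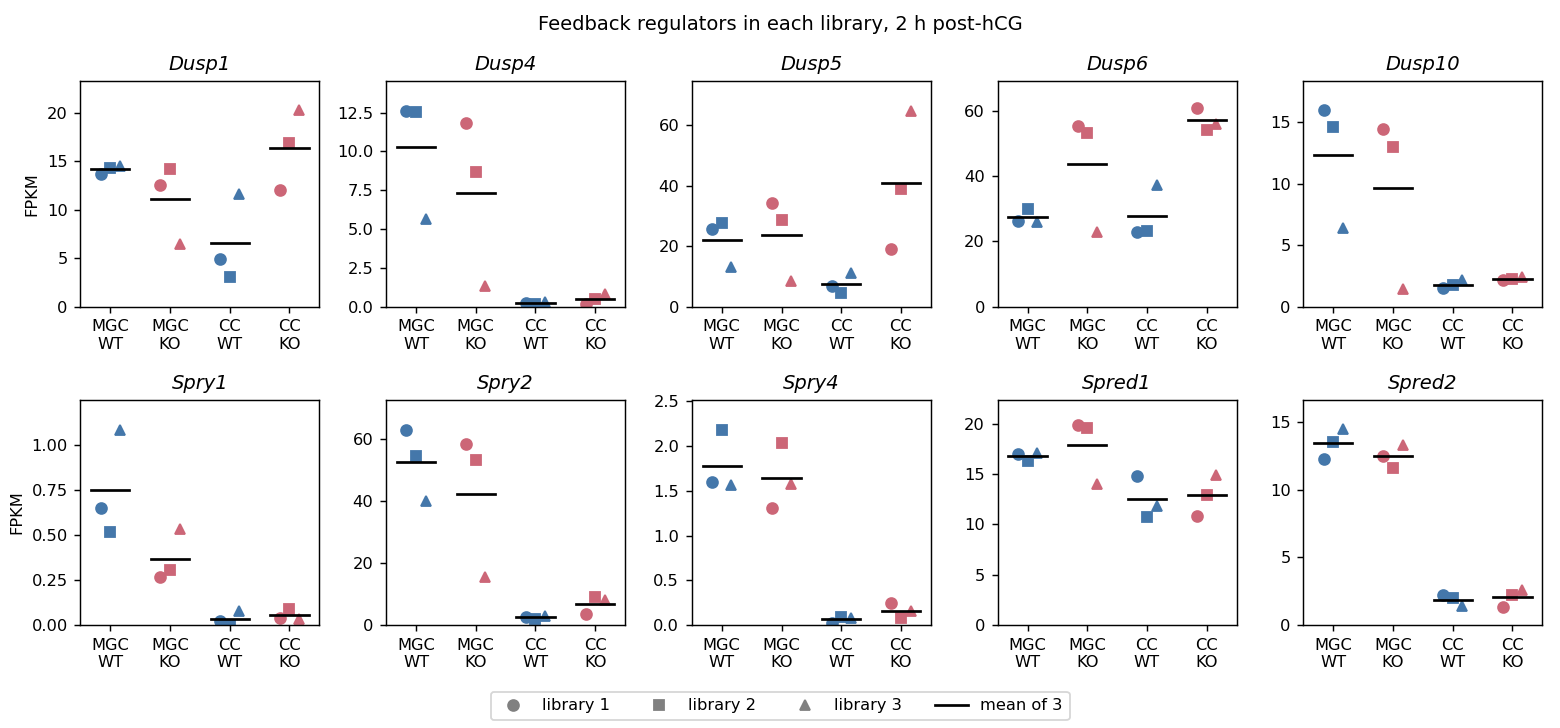
FPKM (y axis, from 0, its own scale in each panel) of the 10 feedback regulators in every library of the 4 groups (x axis: MGC and cumulus cells, CC, WT and labelled knockout, KO). Symbols give the library number and lines the mean of 3 libraries. Dusp1, Dusp5, Dusp6 and Spry2 sit higher in every cumulus library labelled knockout than in any WT cumulus library, whereas MGC library 3 labelled knockout (triangle) is the lowest of its group for 7 of the 10 genes.

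In cumulus cells, 4 feedback regulators were higher in the libraries labelled knockout than in WT, and none was lower. They were Dusp1, Dusp5 and Dusp6, that is 3 of the 4 DUSP members tested, and Spry2, the only Sprouty gene with a mean above 0.5 FPKM in this cell type. "Passed" here means an adjusted p of 0.05 or less (limma on log2(FPKM + 1), Benjamini-Hochberg over all transcripts tested), and log2 fold changes are on that scale, where changes of low transcripts come out too small. A transcript was tested if its mean reached 0.5 FPKM in either genotype, and the 7 members tested reach that mean in both. The background is 9.66% of 12205 transcripts passing as higher, and 4.19% doing so by 2-fold or more, as all 4 members did. In all 4 the genotypes did not overlap, which is so for 18.2% of all transcripts tested in the direction of higher values. In bulk samples, a change in RNA per cell cannot be told apart from a change in the share of cells that make it.

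Dusp5, the nuclear ERK phosphatase, had the largest change of the 7. It was at 6.86, 4.41 and 11.1 FPKM in the WT cumulus libraries and at 19.0, 39.1 and 64.9 FPKM in the libraries labelled knockout. The libraries labelled knockout are all above the WT libraries but differ widely among themselves, from 886 to 3077 reads. The means were 7.44 ± 3.36 and 41.0 ± 23.0 FPKM (SD, n = 3), and the log2 fold change was 2.23 (SE 0.437, adjusted p = 0.0104).

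Dusp6, the cytoplasmic ERK phosphatase, was the most abundant of the 10 genes in cumulus cells of both genotypes. It was at 22.7, 23.0 and 37.1 FPKM in WT and at 60.8, 54.2 and 55.9 FPKM in the libraries labelled knockout. Here it is WT library 3 that differs from its group, and the libraries labelled knockout lie close together. The log2 fold change was 1.05 (SE 0.207, adjusted p = 0.0105), and 1.28 (adjusted p = 0.00627) without WT library 3.

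Dusp1, whose product acts on ERK, p38 and JNK, was at 4.93, 3.05 and 11.6 FPKM in WT cumulus cells and at 12.0, 16.9 and 20.3 FPKM in those labelled knockout. WT library 3 lies just under the lowest library labelled knockout, and the groups do not overlap. The log2 fold change was 1.34 (SE 0.388, adjusted p = 0.0408). It was 1.80 (adjusted p = 0.00937) without WT library 3, and the call was lost (adjusted p of 0.103 to 0.132) without WT library 1, WT library 2, or library 2 or 3 labelled knockout.

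Spry2, which acts between receptor and RAF, was at 2.56, 1.95 and 2.81 FPKM in WT cumulus cells and at 3.62, 8.96 and 8.15 FPKM in the libraries labelled knockout. Library 1 labelled knockout is close to WT, and the other two are far above it. The log2 fold change was 1.13 (SE 0.287, adjusted p = 0.0266). That call is the least secure of the 4, since omitting any library except library 1 labelled knockout gave an adjusted p of 0.0508 to 0.0955.

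Dusp10, Spred1 and Spred2 were tested in cumulus cells and did not pass. Spred1 was at 14.8, 10.8 and 11.8 FPKM in WT and at 10.9, 13.0 and 14.9 FPKM in the libraries labelled knockout, a log2 fold change of 0.046 (95% interval −0.36 to 0.46). Spred2 was at 2.22, 2.01 and 1.39 FPKM in WT and at 1.30, 2.26 and 2.56 FPKM in those labelled knockout (0.067, 95% interval −0.40 to 0.54). In both Spred genes the genotypes overlap throughout, and each interval leaves out a 2-fold change in either direction. Dusp10, the p38 and JNK phosphatase, was at 1.49, 1.72 and 2.15 FPKM in WT and at 2.13, 2.23 and 2.38 FPKM in those labelled knockout (0.23, 95% interval −0.11 to 0.56, adjusted p = 0.293). WT library 3 of Dusp10 lies just above the lowest library labelled knockout.

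Dusp4, Spry1 and Spry4 were below the filter in cumulus cells. Dusp4 was at 0.227, 0.183 and 0.270 FPKM (9 to 13 reads) in WT and at 0.174, 0.462 and 0.780 FPKM (9 to 41 reads) in the libraries labelled knockout. Spry1 was at 0 to 0.0871 FPKM in the 6 libraries, which is 0 to 5 reads, and Spry4 was at 0.0271 to 0.0849 FPKM in WT and at 0.0772 to 0.243 FPKM in those labelled knockout. With no filter their log2 fold changes were 0.24, 0.028 and 0.12, and none passed. In that fit of 30985 transcripts, which adds many near 0, 1 of the 10 members passed, Dusp6, while Dusp5 (adjusted p = 0.0536), Spry2 (0.102) and Dusp1 (0.149) did not.

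The summed level of the 5 DUSP members in cumulus cells was 36.2, 32.4 and 62.2 FPKM in WT, against 94.2, 113 and 144 FPKM in the libraries labelled knockout, with no overlap. The summed level of the 5 Sprouty and Spred members was 19.7, 14.8 and 16.2 FPKM in WT, against 16.1, 24.3 and 25.8 FPKM in those labelled knockout, and here the groups overlap. In WT cumulus cells Dusp6 and Spred1 lead, followed by Dusp5 and Dusp1, and the ranges of the last 3 of these overlap from each to the next. In the libraries labelled knockout the order is Dusp6, Dusp5, Dusp1 and Spred1, again with overlap between neighbours, so that Dusp5 and Dusp1 stand above Spred1, whose mean level was nearly the same in both genotypes (12.5 and 12.9 FPKM).

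**Figure D2:**
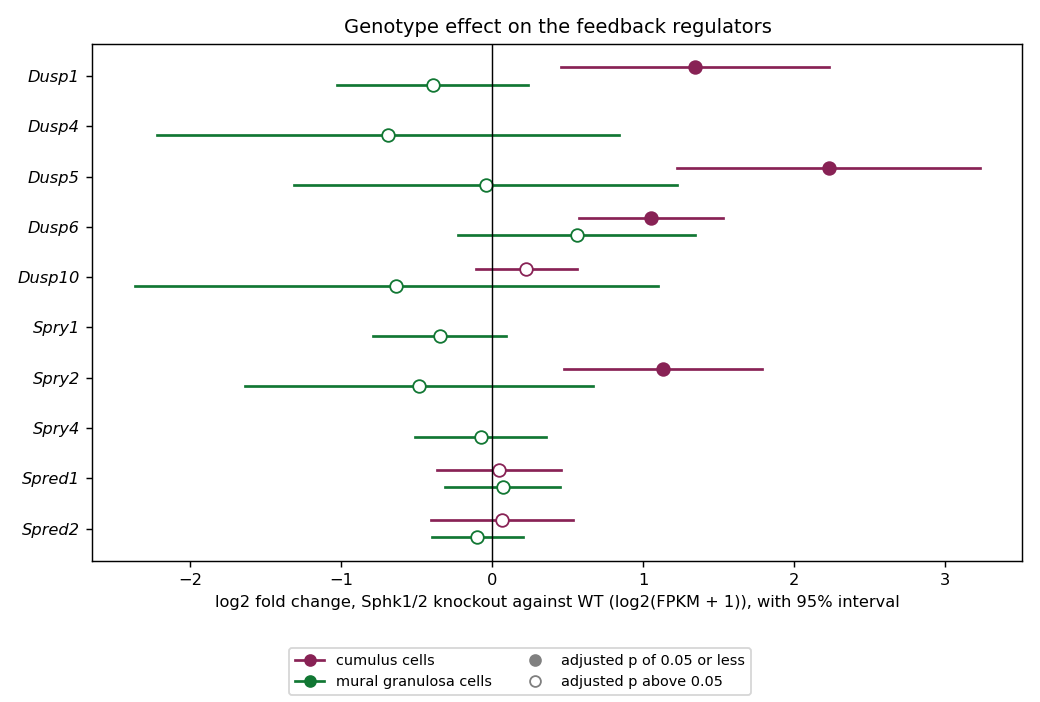
Log2 fold change of libraries labelled Sphk1/2 knockout against WT (x axis, log2(FPKM + 1) scale) for each feedback regulator (y axis) in cumulus cells and MGCs. Circles are estimates, lines 95% intervals and filled circles an adjusted p of 0.05 or less. Filled circles stand only in cumulus cells, at 1.34 (Dusp1), 2.23 (Dusp5), 1.05 (Dusp6) and 1.13 (Spry2), and the MGC intervals of Dusp4, Dusp5, Dusp10 and Spry2 are the widest.

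In MGCs all 10 members were tested and none passed, with none at an unadjusted p of 0.05 or less either (9.2% of all transcripts were), and none passed with voom on the recovered reads. The background is 6 of 15279 transcripts passing (0.0393%), or 3 with the library number as a block. The means of the 10 genes span 0.747 FPKM (Spry1) to 52.5 FPKM (Spry2) in WT MGCs. In no member did the genotypes separate, where 16.9% of all transcripts had groups that do not overlap.

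Dusp6 had the largest positive estimate in MGCs. It was at 26.1, 29.8 and 25.9 FPKM in WT and at 55.2, 53.2 and 22.7 FPKM in the libraries labelled knockout. Libraries 1 and 2 are about as high as the cumulus libraries labelled knockout, and library 3 is below every WT library. The log2 fold change was 0.56 (SE 0.331, adjusted p = 0.665). Without library 3 labelled knockout it was 0.97 (SE 0.0956, adjusted p = 0.0146), where 278 of 15215 transcripts passed. Without library 3 of both genotypes it was 0.93 (adjusted p = 0.00768), where 2486 of 15433 transcripts passed. Thus 1 library decides this call.

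Spry2 was the most abundant member in WT MGCs, at 63.0, 54.5 and 40.0 FPKM, and was at 58.5, 53.1 and 15.6 FPKM in the libraries labelled knockout. Dusp5 was at 25.7, 27.7 and 13.0 FPKM in WT and at 34.3, 28.7 and 8.34 FPKM in those labelled knockout. Dusp4 was at 12.6, 12.5 and 5.65 FPKM in WT and at 11.8, 8.68 and 1.35 FPKM in those labelled knockout. Dusp10 was at 15.9, 14.6 and 6.41 FPKM in WT and at 14.4, 13.0 and 1.44 FPKM in those labelled knockout. In these 4 genes library 3 is the lowest of its group in both genotypes. Areg and Ereg, the EGF-like ligands that MGCs make after LH, were likewise at 340 and 157 FPKM in library 3 labelled knockout, against 1605 to 1940 and 1354 to 1628 FPKM in libraries 1 and 2. Areg and Ereg in WT library 3, at 1705 and 908 FPKM, were close to WT libraries 1 and 2. Log2 fold changes over all MGC libraries were −0.48 for Spry2, −0.043 for Dusp5, −0.69 for Dusp4 and −0.63 for Dusp10. Without library 3 labelled knockout they were 0.11, 0.55, 0.059 and 0.23, and none passed.

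In WT MGCs Dusp1 was at 13.7, 14.3 and 14.5 FPKM, with 12.5, 14.2 and 6.50 FPKM in those labelled knockout, a log2 fold change of −0.39 (95% interval −1.02 to 0.24). Spred1 was at 16.9, 16.3 and 17.1 FPKM in WT and at 19.9, 19.6 and 14.1 FPKM in those labelled knockout (0.070, 95% interval −0.31 to 0.45). Spred2 was at 12.3, 13.5 and 14.5 FPKM in WT and at 12.5, 11.6 and 13.3 FPKM in those labelled knockout (−0.097, 95% interval −0.40 to 0.21). The Spred intervals leave out a 2-fold change, and that of Dusp1 reaches just past a 2-fold decrease. Spry4 was at 1.60, 2.18 and 1.56 FPKM in WT and at 1.31, 2.03 and 1.58 FPKM in those labelled knockout (−0.077). Spry1 was at 0.647, 0.513 and 1.08 FPKM in WT and at 0.264, 0.305 and 0.533 FPKM in those labelled knockout, which is 25 to 53 and 13 to 28 reads (−0.35, adjusted p = 0.624).

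The genotype effect in cumulus cells minus that in MGCs was tested in all 12 libraries, and no member passed, where 3.93% of 15869 transcripts did. The largest differences on the log2 scale were 2.27 for Dusp5 (SE 0.763, adjusted p = 0.112), 1.74 for Dusp1 (SE 0.524, adjusted p = 0.0826) and 1.62 for Spry2 (SE 0.612, adjusted p = 0.151), with unadjusted p-values of 0.0117, 0.00628 and 0.0218, where 22.1% of all transcripts had one of 0.05 or less. With the library number as a block, Dusp5 passed (adjusted p = 0.0242). Dusp1 passed without WT cumulus library 3 (2.19, adjusted p = 0.0274) and without library 3 of every group (1.70, adjusted p = 0.0243). For Dusp6 the difference was 0.49 (95% interval −0.41 to 1.40), and 0.085 without MGC library 3 labelled knockout. The calls in cumulus cells are therefore not shown to differ from the MGC effects.

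In WT mice, 9 of the 10 members were lower in cumulus cells than in MGCs, where 52.5% of all transcripts tested passed as lower and the median of all was −0.54. Dusp4, Spry1 and Spry4 reached the filter of 0.5 FPKM only in MGCs, with cumulus means of at most 0.472 FPKM. They could therefore pass only as lower, and their calls add no support. The log2 difference was −3.94 for Spry2 (52.5 ± 11.6 FPKM in MGCs and 2.44 ± 0.445 FPKM in cumulus cells, SD, n = 3), −3.12 for Dusp4, −2.34 for Spred2 and −2.17 for Dusp10. It was −1.46 for Dusp5, −1.38 for Spry4, −1.18 for Dusp1, −0.75 for Spry1 and −0.41 for Spred1. On this log2(FPKM + 1) scale differences of low transcripts come out too small. The WT means in MGCs and cumulus cells were 1.78 and 0.0621 FPKM for Spry4 and 0.747 and 0.0332 FPKM for Spry1. For Spry2, Spry4 and Dusp1, equal length scaling of the MGC and cumulus values was not checked. Dusp6 was at nearly the same level in both cell types (27.3 ± 2.21 and 27.6 ± 8.25 FPKM, log2 difference −0.017, 95% interval −0.66 to 0.62). With quantile normalization, which takes the median of all to −0.029, Spry2, Dusp4, Spred2, Dusp10 and Spry4 still passed as lower. With median ratio scaling (median −0.16) Spry1 passed as well, and Spred1 turned to 0.28 without passing. Dusp1 lost its call without WT cumulus library 2 (adjusted p = 0.0603), and Dusp5 without any of WT libraries 1 and 2 of either cell type (0.0598 to 0.0984). Spred1, already close to the limit (adjusted p = 0.0449), lost its call without any WT MGC library, WT cumulus library 2 or 3, or library 2 of either cell type labelled knockout (0.0528 to 0.159), and with the library number as a block (0.140).

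In mice labelled knockout, 6 members were lower in cumulus cells than in MGCs, where 51.3% of all transcripts passed as lower. They were Spry2 (−2.33), Dusp4 (−2.19), Spred2 (−2.17), Spry4 (−1.18), Spred1 (−0.43) and Spry1 (−0.37). Dusp4 and Spry4 again reached the filter only in MGCs, and Spry1 only in WT MGCs, so their calls add no support. Dusp10 had a log2 difference of −1.31 (adjusted p = 0.0518), and −2.18 (adjusted p = 4.8e-05) without MGC library 3 labelled knockout. Dusp1 (0.56), Dusp5 (0.81) and Dusp6 (0.48) were on the positive side and did not pass. With median ratio scaling these DUSP genes passed as higher in cumulus cells, at 1.24, 1.51 and 1.20, while Spred1 turned to 0.26, and with quantile normalization Spry1 turned to 0.026, neither passing. Spry1 lost its call without cumulus library 1 or 3 or MGC library 3 labelled knockout (adjusted p of 0.0589 to 0.0669), and Spred1 without library 1 or 2 of either cell type labelled knockout (0.0710 to 0.126) or WT MGC library 1 or 2 (0.0502 and 0.0513). With the library number as a block, Dusp10 passed (adjusted p = 0.00246) and Spry1 (0.145) and Spred1 (0.131) did not. This contrast shares its libraries with the genotype contrasts above.

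**Figure D3:**
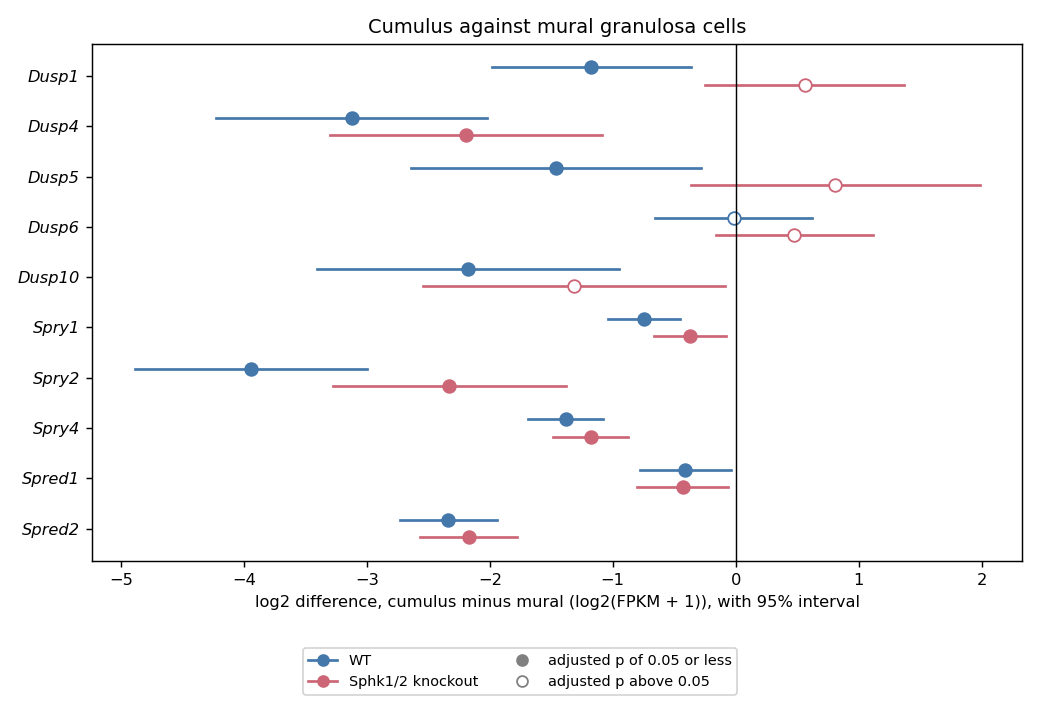
Log2 difference of cumulus cells minus MGCs (x axis, log2(FPKM + 1) scale) for each feedback regulator (y axis), in WT and in mice labelled Sphk1/2 knockout. Circles are estimates, lines 95% intervals and filled circles an adjusted p of 0.05 or less. On this scale, where differences of low transcripts come out too small, Spry2 (−3.94 and −2.33) and Dusp4 (−3.12 and −2.19) lie furthest below 0. Dusp1, Dusp5 and Dusp6 lie above 0 in the knockout with intervals that cross it.

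Other genes of the pathway were taken from lists that hold none of the 10 members. In cumulus cells, 1 of 5 other MAP kinase phosphatases tested was higher in the libraries labelled knockout, Dusp2, an inducible nuclear phosphatase, with 0.527, 0.167 and 0.711 FPKM in WT against 2.52, 6.97 and 7.42 FPKM in those labelled knockout (log2 fold change 2.09, adjusted p = 0.005). The mean of Dusp2 reached the filter of 0.5 FPKM only in those labelled knockout (0.468 and 5.64 FPKM), so it could pass only as higher. Without WT cumulus library 3, 2 of these 5 passed, the other being Dusp8 (0.87), named after its values were seen. The background for these lists is 9.66% of transcripts passing as higher and 12.7% as lower. Without WT cumulus library 3, 971 of 12252 transcripts passed as higher and 1182 as lower. Of 15 other feedback inhibitors of EGFR and RAS-ERK tested, 4 were higher and none was lower. They included Errfi1, whose product binds and inhibits EGFR, at 66.6, 56.7 and 102 FPKM in WT against 213, 226 and 381 FPKM in those labelled knockout (1.85, adjusted p = 0.00455). The others were Tob1, an antiproliferative ERK substrate (1.82), Socs5, a suppressor of cytokine and EGFR signalling (0.72), and Socs3, the cytokine signalling inhibitor (1.76), the last being named after its values were seen. Socs3 also reached the filter only in those labelled knockout (means of 0.243 and 3.38 FPKM) and could pass only as higher. The median of the 15 was 0.14, against −0.056 for all transcripts.

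Upstream, 1 of 6 EGF-like ligands and ERBB receptors tested in cumulus cells was higher, Hbegf, a ligand of EGFR, with 2.02, 3.12 and 2.93 FPKM in WT against 8.90, 12.0 and 18.0 FPKM in those labelled knockout (1.88, adjusted p = 0.00263). Areg (−0.083) and Ereg (−0.0016) did not pass, nor did Egfr (−0.53, adjusted p = 0.0624). Egfr was at 3.26, 1.89 and 2.03 FPKM in WT and at 1.35, 1.34 and 1.24 FPKM in those labelled knockout, with no overlap. In the RAS-RAF-MEK-ERK core 3 of 24 genes were higher and none was lower. Those were Rras2, a RAS-related GTPase (1.44, from 30.8, 32.1 and 33.2 to 87.4, 75.1 and 105 FPKM), Mknk2, a kinase downstream of ERK (1.43), and Nras (0.81). Without WT cumulus library 3, 4 of 24 were higher, with Map2k1, which encodes MEK1, added (0.77, adjusted p = 0.0382). Mapk3, which encodes an ERK kinase, did not pass (−0.23). In the p38 and JNK branch 2 of 14 genes were higher, Map2k3, which activates p38 (1.46), and Map3k4 (0.97), and 2 were lower, Map3k7 (−0.83) and Map2k6 (−0.66), the latter named after its values were seen. Without WT cumulus library 3, 4 of these 14 were higher and 1 was lower, with Mapkapk2 (0.76, adjusted p = 0.042) and Mapkapk3 (0.77, adjusted p = 0.0472), kinases downstream of p38, gaining a call and Map2k6 losing it (adjusted p = 0.0704).

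Of 17 ERK-responsive transcripts tested in cumulus cells, 3 were higher and 1 lower in the libraries labelled knockout. Fosl1, a slower AP-1 subunit that ERK induces and stabilizes, was at 2.00, 2.25 and 5.30 FPKM in WT and at 14.6, 20.2 and 25.6 FPKM in those labelled knockout (2.39, adjusted p = 0.00252). Egr3 (1.48) and Myc (0.84), both transcription factors, were higher, and the receptor Epha4 (−1.08) was lower. Without WT cumulus library 3, 4 of 17 were higher and 1 was lower, as Junb (2.04, adjusted p = 0.0161) and Ier3 (1.13, adjusted p = 0.0201) gained a call and Myc lost it (adjusted p = 0.0884). The genes that gained a call were named after their values were seen. The immediate early genes Fos and Egr1 did not pass. Fos was at 136, 224 and 266 FPKM in WT and at 217, 261 and 182 FPKM in those labelled knockout (0.12, adjusted p = 0.773), and Egr1 at 165, 138 and 150 FPKM in WT and at 71.9, 150 and 170 FPKM in those labelled knockout (−0.30, adjusted p = 0.506). For both, the genotypes overlap. In MGCs no gene of any of these lists passed. Without MGC library 3 labelled knockout, 1 of 24 core genes (Sos2, 0.97) and 1 of 15 genes of the p38 and JNK branch (Map2k3, 0.72) passed. Both were higher and both were named after their values were seen. In that fit 167 of 15215 transcripts passed as higher.

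**Figure D4:**
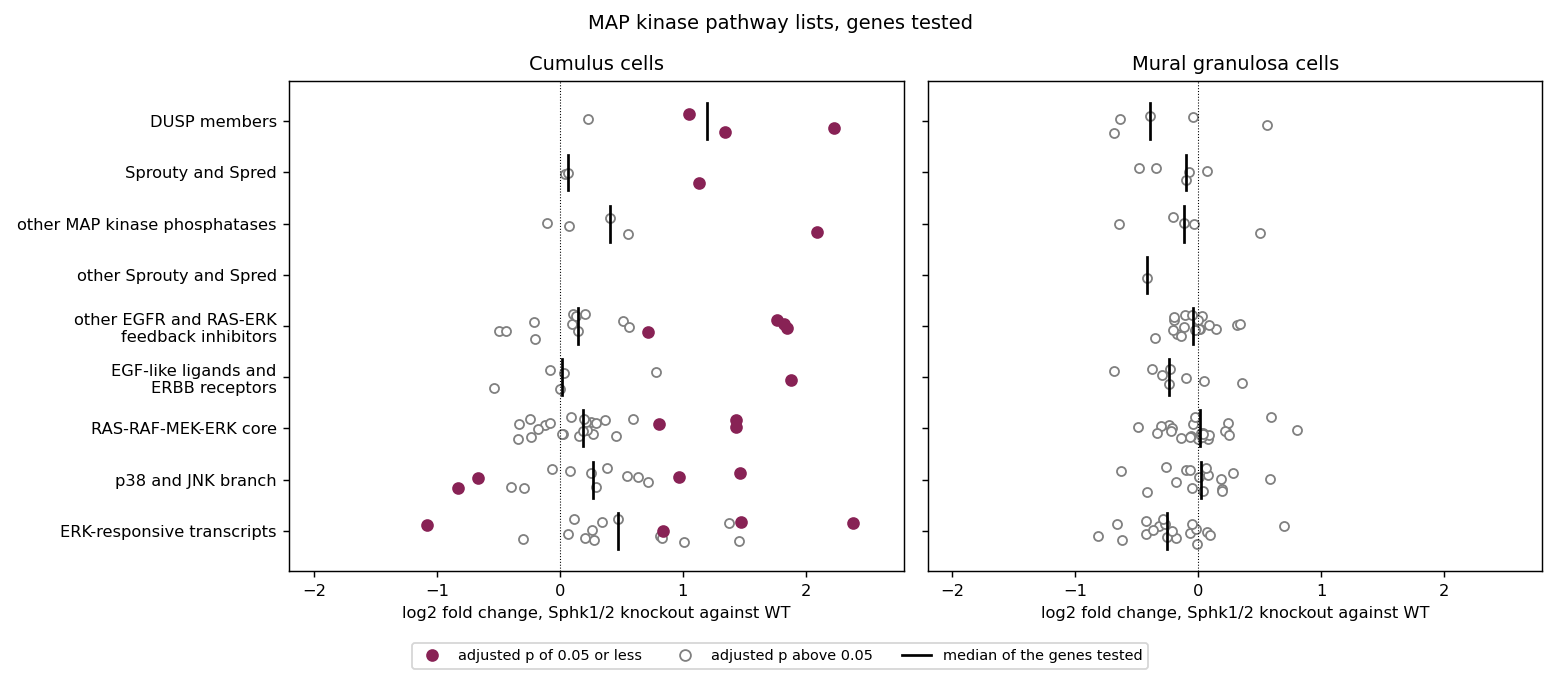
Log2 fold change of libraries labelled Sphk1/2 knockout against WT (x axis) for every tested gene of 9 MAP kinase pathway lists (y axis), in cumulus cells (left) and MGCs (right). Filled points have an adjusted p of 0.05 or less and black bars are list medians. In cumulus cells filled points are in 8 lists, mostly to the right of 0, while the list medians other than that of the DUSP members lie between 0.015 and 0.48, and in MGCs there is none.

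Each member was set beside the transcripts whose values were most alike over the 12 libraries, after the mean of each cell type had been removed, among 6717 transcripts with a mean of at least 5 FPKM. These correlations describe libraries that share genotype and depth. Spry2 was most like Pim1, a cytokine-induced kinase (r = 0.993), and Rgcc (0.976). Dusp6 was most like Stat3, the cytokine-activated transcription factor (0.974), and Parm1 (0.970), Dusp5 most like Eaf1 (0.981) and Clic1 (0.980), and Dusp1 most like Junb, an AP-1 subunit (0.967), and Bhlhe40 (0.938). Dusp4, whose own mean is under 5 FPKM, was most like Dusp10 (0.977) and Nmu (0.970), and Dusp10 was most like Elovl4 (0.976) and Gm47662 (0.973). Spred1 was most like Cdk17 (0.920) and Kmt5b (0.906), Spred2 most like Flvcr1 (0.904) and Rps14 (0.835), Spry1 most like Hacd3 (0.934) and Ecm1 (0.908), and Spry4 most like Krt18 (0.838) and Cd9 (0.786). The means of Spry1 and Spry4 are also under 5 FPKM, in every group. In the cumulus libraries Spry1 rests on 0 to 5 reads and Spry4 on about 2 to 22. Among the members that passed in cumulus cells, Dusp5 had r = 0.904 with Spry2, 0.891 with Dusp1 and 0.807 with Dusp6.

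Marker lists of the cell types that a sample could hold moved with genotype in cumulus cells. Of 7 cumulus expansion and cumulus markers, 3 were higher in the libraries labelled knockout (Ptx3, Tnfaip6 and Slc38a3), and the summed level was 330 to 724 FPKM in WT against 1098 to 1356 FPKM in those labelled knockout. The sum of the cumulus list did not mark cumulus cells in these data, since it was 1348 to 1587 FPKM in WT MGCs. There Tnfaip6 had a mean of 858 FPKM against 188 FPKM in WT cumulus cells, and Slc38a3 34.9 FPKM against 1.00 FPKM. Ptgs2, Npr2 and Amh were also higher in WT MGCs. Has2 and Ptx3 went the other way, with means of 55.44 and 144.5 FPKM in WT cumulus cells against 15.25 and 49.95 FPKM in WT MGCs. Of 5 mural granulosa markers 3 were lower (85.4 to 137 and 39.4 to 54.0 FPKM), and of 6 granulosa markers 5 were lower (2650 to 3693 and 2330 to 2664 FPKM). In cumulus cells 1 oocyte marker (Zp3), 2 theca and stroma markers (Cyp17a1 and Lum) and 1 leukocyte marker (S100a9) were also lower, and no marker of the other lists passed. Zp3, Lum and S100a9 reached the filter of 0.5 FPKM only in WT, so they could pass only as lower. The background is 9.66% of transcripts passing as higher and 12.7% as lower. Of the leukocyte markers, Lyz2, Cd68, Csf1r and Adgre1 had higher means in cumulus cells labelled knockout, and S100a8 and Ptprc lower ones. The oocyte list summed to 3.93 to 7.17 and 2.20 to 2.67 FPKM, the theca and stroma list to 11.9 to 40.9 and 6.13 to 12.0 FPKM, the smooth muscle list to 5.87 to 24.2 and 6.13 to 21.6 FPKM and the red blood cell list to 0.347 to 22.4 and 0.200 to 1.42 FPKM. The 7 leukocyte markers summed to 4.87 to 54.9 FPKM in WT against 6.92 to 52.3 FPKM in those labelled knockout, and the 7 endothelial markers to 0.283 to 0.943 and 0.193 to 0.262 FPKM, with Tek and Tie1 at 0 in the latter. In MGCs the leukocyte list summed to 161 to 306 FPKM in WT against 20.4 to 107 FPKM in those labelled knockout, the endothelial list to 12.4 to 16.1 against 7.99 to 9.82 FPKM and the smooth muscle and pericyte list to 54.8 to 65.0 against 30.7 to 41.6 FPKM. The sums of these 3 lists separated the genotypes without overlap, and no marker passed in MGCs. The leukocyte sum rests mostly on S100a8, S100a9 and Lyz2, whose means were lower in MGCs labelled knockout (S100a9 at 113.8 FPKM in WT and 13.77 FPKM). The means of Ptprc, Cd68, Csf1r and Adgre1 were higher there (Adgre1 at 1.708 FPKM in WT and 3.369 FPKM). The part of these cell types in the values of the feedback regulators was not tested.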

How the data were processed

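Per the submitters' processing notes, reads were aligned with HISAT2 to GRCm38. The counting tool and its settings are not given in the sources used here. The library kit was NEBNext Ultra RNA. The authors deposited FPKM values, in 1 table per cell type, and 0 columns of them were left unused. Gene names, positions and exon lengths came from GENCODE M21 (GRCm38), which lacks 66 genes of the cumulus table and 64 of the MGC table. FPKM times exon length was a whole number of reads, within 0.02 reads, for 90.6% to 92.1% of each library's nonzero values. This gave the reads quoted and the voom alternative. The exon lengths of Dusp1, Spry2 and Spry4 do not give whole reads, so their reads are approximate. The intervals quoted come from the limma fits on log2(FPKM + 1), not from reads, and measure the spread between these libraries.

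Within a cell type the genotypes were compared by limma-trend (limma 3.58.1, R 4.3.3) on log2(FPKM + 1), over transcripts whose mean reached 0.5 FPKM in either genotype. Cell types were compared in 1 fit of all 12 libraries with 4 group means, over transcripts whose mean reached 0.5 FPKM in any group. The ground for this was a check of exon lengths. For 99.6% of 25221 transcripts, the GENCODE length gave whole reads in most libraries of both tables, or of neither. Where neither table gave whole reads, as for Dusp1, Spry2 and Spry4, equal length scaling was not checked. All p-values are two-sided and adjusted by the Benjamini-Hochberg method over all transcripts tested. Such an adjusted p of 0.05 or less was the call. The scripts were tested on simulated data. The members and the gene lists were chosen with earlier results of these data known, and the genes named from each list are up to 4 with the largest change among those passing at a mean of 2 FPKM or more, plus Areg, Ereg, Egfr, Mapk3, Fos and Egr1 (a further gene of that rule is not reported here). Library numbers come from the sample titles. After removal of the group means, libraries of the same number correlated at 0.220, 0.158 and 0.224 in MGCs, which was taken as a possible pairing. In cumulus cells they correlated at −0.148, −0.0511 and 0.115, which was not. The titles do not state a pairing, so the main fits of both cell types hold no block. Alternatives were a pseudocount of 0.1, no filter, a filter at 2 FPKM, quantile normalization, median ratio scaling, voom on the reads, the library number as a block, a 2-fold rule and omission of each library. Counts for the lists without WT cumulus library 3 and MGC library 3 labelled knockout were added after seeing the data.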

Additional observations from a re-analysis of the deposited data

How the results depend on the processing

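The 4 members that passed in cumulus cells were 4 under a pseudocount of 0.1, a filter at 2 FPKM, both scalings, voom and the 2-fold rule, 1 with no filter, and 2 to 4 when a library was left out. With the library number as a block they were also 4, and in MGCs 0, so the block changed no genotype call of a member within a cell type. In MGCs 0 to 1 members passed with a library left out, and 1 without library 3 of both genotypes. Transcripts passing in cumulus cells numbered 1240 with no filter, 981 with the 2-fold rule, 1319 to 3930 with a library left out and 715 without library 3 of both genotypes, against 2725. In MGCs they numbered 1 with no filter, 1 with a filter at 2 FPKM, 1 with quantile normalization, 1 with median ratio scaling, 0 with voom, 3 with the library number as a block, 0 to 278 with a library left out and 2486 without library 3 of both genotypes, against 6. For the difference between cell types 1 member passed with the block, 0 to 1 with a library left out and 1 without library 3 of every group, against 0. For cumulus cells against MGCs in WT, 5 members passed with quantile normalization, against 9. Median ratio scaling turned Spred1 to 0.28 in WT and 0.26 in mice labelled knockout, and quantile normalization turned Spry1 to 0.026 in the latter. The cause of these changes was not tested. With 3 libraries per group a 2-fold change can be missed, and levels under about 0.5 FPKM rest on few reads.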
